A study of Mus musculus with 12 samples.

Results

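The genes described are 10 named members of the inhibin, activin and TGF-beta signalling family, chosen by symbol: Inha, Inhba, Inhbb, Fst, Tgfb1, Tgfb2, Tgfb3, Bmp4, Id1 and Smad7. They were chosen with earlier results of these data known. The scanner files give accessions in place of symbols in their gene name column, so that 0 spots carry a member's symbol there, and probes were named by matching those accessions to the RefSeq gene table of mouse build GRCm38.p6. In this way 8 of the 10 genes had a probe, among 15980 named genes on the array, and Inhbb and Smad7 matched none and have no value here. Inha and Id1 had 2 probes each, and the probe with the higher mean signal stands for the gene.

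The family works through secreted dimers. Inhba encodes the beta A subunit, which pairs with itself to form activin A or with the alpha subunit from Inha to form inhibin A, an antagonist of activin, while follistatin, from Fst, binds activin and keeps it from its receptors. TGF-beta ligands and activins signal through SMAD2 and SMAD3, and bone morphogenetic proteins such as BMP4 through SMAD1, SMAD5 and SMAD9, with Id1 a well known target of the latter and SMAD7 an inhibitor inside the cell. In the testis, inhibin and activin are best known for the control of follicle-stimulating hormone and for local signals between somatic cells and germ cells.

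TM3 is an established mouse Leydig cell line, the Leydig cell being the testosterone-producing cell of the testis. Cultures received medium alone or medium with methoxyacetic acid (MAA), the active metabolite of a solvent toxic to the testis, at 1 mM or 5 mM for 3, 8 or 24 h. Each of the 12 arrays compared labelled RNA of treated cells, pooled from 3 cultures, with RNA of untreated cells of the same time in the other colour, and each of the 6 conditions had 2 arrays with the dyes swapped. The 5 mM and 1 mM arrays of a time were both set against untreated cells of that time, so the doses share their controls. Between 61.5% and 70.5% of probes were well above background in a channel, and the number of arrays limits the precision.

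The label of the line was checked against Leydig cell markers. Star, Cyp17a1 and Insl3 were well above background in untreated cells on 12 of 12 arrays and Nr5a1 on 8, while Cyp11a1, Hsd3b1 and Lhcgr were so on none. Markers of other testis cells were also measured. Of the Sertoli markers, Wt1, Sox9 and Rhox5 were well above background in untreated cells on 12 of 12 arrays. Gata1 was so on 8, Amh, Fshr and Dhh on 2 each and Cldn11 on none. Of the peritubular myoid markers, Acta2 and Cnn1 were so on 12 arrays, Des on 8 and Myh11 on 5. Median untreated signals were 9060 for Wt1, 18500 for Acta2 and 458 for Insl3, the brightest Leydig marker (signals of different probes are not on 1 scale). The cells are called TM3 cells in what follows.

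Values are log2 ratios of MAA-treated over untreated signal, so that 1 is a 2-fold higher level and -1 a 2-fold lower one. A probe was called changed at an unadjusted p under 0.005 in limma together with a change of more than 2-fold at 5 mM or 1.5-fold at 1 mM, the thresholds of the study, and p-values adjusted over all 41174 probes stand beside the values. At 5 mM, 1 of the 8 members was called at 3 h (3.76% of all probes were), 2 at 8 h (5.55%) and 1 at 24 h (5.62%). At 1 mM, none was called at 3 h (1.95%) or 8 h (2.37%) and 1 at 24 h (4.68%). A single gene is 12.5% of the 8, so these counts of calls do not set the members apart from other probes. At an unadjusted p under 0.05 in limma alone, with no fold asked, stood 3, 8 and 6 members at 5 mM for 3, 8 and 24 h (32.9%, 38.2% and 38.6% of all probes) and 4, 5 and 5 at 1 mM (16.8%, 18.8% and 25.4%). The median log2 ratio of the 8 members was -0.08, -0.55 and -0.19 at 5 mM for 3, 8 and 24 h, against -0.10, -0.04 and 0.03 over all probes, and 0.15, 0.18 and 0.30 at 1 mM, against 0.02, 0.02 and -0.07. The shift of all probes at 5 mM for 3 h is the largest of the 6, and centring each array on its median raised the members' log2 values there by about that amount.

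**Figure D1:**
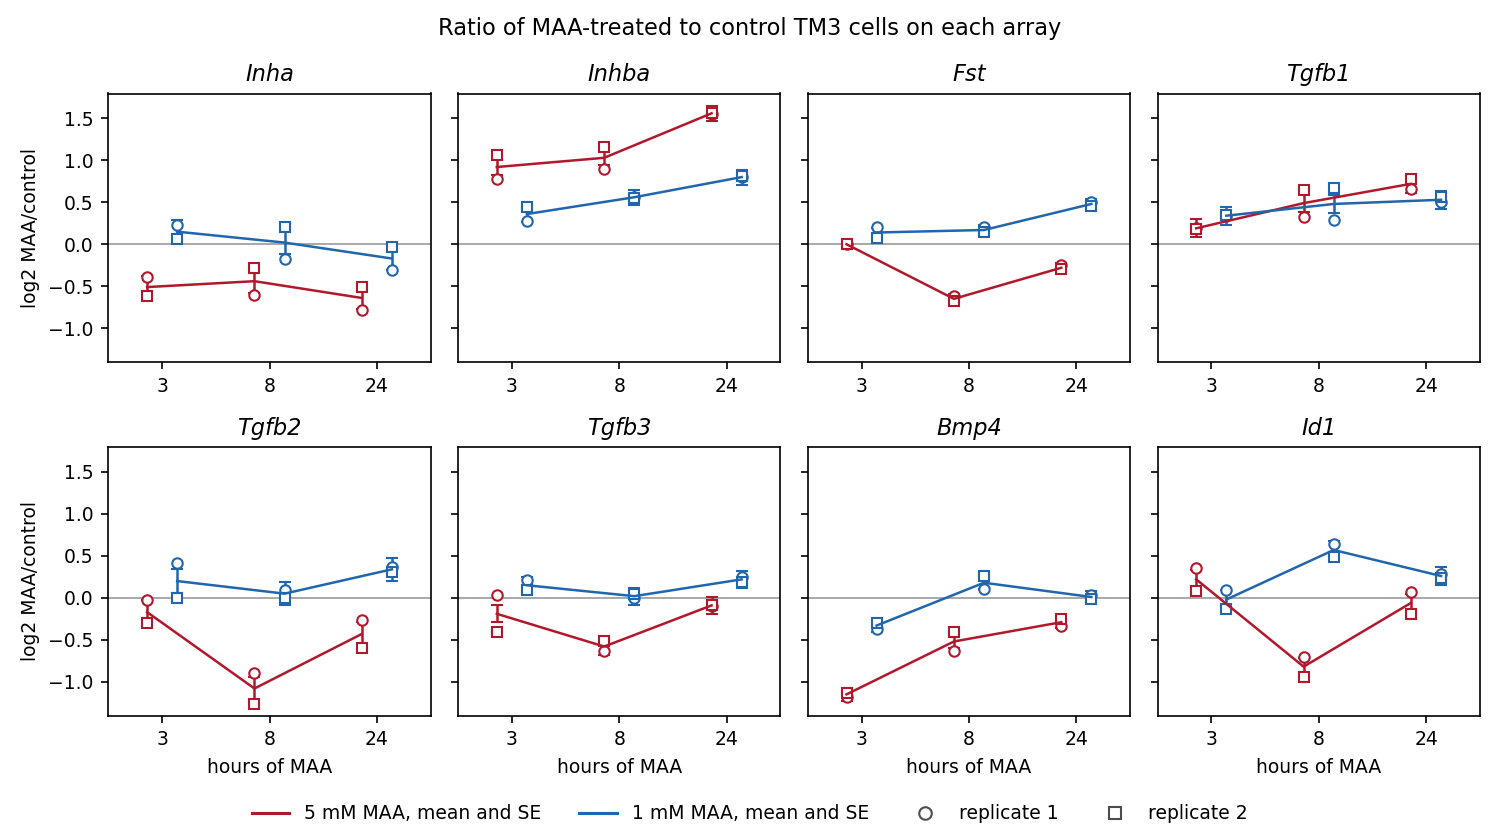
Log2 ratio of MAA-treated to untreated TM3 cells (y axis) after 3, 8 and 24 h (x axis) for the 8 members, with 1 circle or square per array and lines through the means of 2 arrays (bars: SE of the limma fit). Inhba lies above 0 on all 12 arrays, Bmp4 is lowest at 5 mM for 3 h (-1.15), and Tgfb2 (-1.08), Id1 (-0.82) and Fst (-0.65) are lowest at 5 mM for 8 h.

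Inhba, the activin and inhibin beta A subunit, had the highest mean ratio of the 8 members at each time at 5 mM. At 1 mM for 8 h its mean log2 ratio was 0.56 and that of Id1 0.57. At 5 mM the log2 ratio of Inhba was 0.78 and 1.06 on the 2 arrays at 3 h, 0.90 and 1.16 at 8 h, and 1.55 and 1.56 at 24 h. The 1 mM arrays gave 0.28 and 0.44 at 3 h, 0.56 and 0.55 at 8 h, and 0.80 and 0.81 at 24 h. All 12 arrays thus lay above 0, and at each time both 5 mM arrays lay above both 1 mM arrays. The SE here and below is that of the limma fit, with an estimate of the spread shared by all conditions. It is not the spread of the 2 arrays of a condition. Inhba rose 2.94-fold at 5 mM for 24 h (log2 1.56 ± 0.0904, SE of the fit, n = 2, adjusted p = 3.30e-05) and 2.04-fold at 5 mM for 8 h (log2 1.03 ± 0.0904, n = 2, adjusted p = 1.39e-04). It also rose 1.75-fold at 1 mM for 24 h (log2 0.80 ± 0.0904, n = 2, adjusted p = 0.00233). At 5 mM for 3 h it was 1.89-fold higher (adjusted p = 3.38e-04), short of the 2-fold threshold, and it was called there when each array was centred on its median (log2 1.03) or without the 5 mM 3 h replicate 1 (log2 1.06). The call at 5 mM for 8 h sits near the threshold: it was lost with normexp and loess (log2 0.99), with the slide as a block (log2 0.99) and without the 5 mM 8 h replicate 2 (log2 0.90).

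Inha, the alpha subunit that turns a beta subunit into inhibin, was called in none of the 6 conditions. On its brighter probe the 5 mM arrays read -0.39 and -0.62 at 3 h, -0.60 and -0.28 at 8 h, and -0.78 and -0.51 at 24 h, so that 6 of 6 arrays at 5 mM lay below 0. At 1 mM the values ran from -0.31 to 0.23, with 3 arrays above 0 and 3 below. The largest of the mean values was -0.64 ± 0.135 at 5 mM for 24 h (1.56-fold lower, n = 2, adjusted p = 0.00890), which is short of 2-fold. The other probe of Inha was not well above background in treated cells at 5 mM at any time and gives no fold.

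Fst, whose product follistatin neutralises activin, had opposite signs at the 2 doses from 8 h on. Its log2 ratios at 5 mM were 0.00 and 0.00 at 3 h, -0.62 and -0.67 at 8 h, and -0.25 and -0.30 at 24 h. At 1 mM they were 0.20 and 0.08 at 3 h, 0.20 and 0.15 at 8 h, and 0.50 and 0.46 at 24 h. Every 1 mM array was thus above 0, and the 4 arrays at 5 mM for 8 and 24 h were below it. The mean at 5 mM for 8 h was 1.57-fold lower (log2 -0.65 ± 0.0564, n = 2, adjusted p = 1.35e-04) and at 1 mM for 24 h 1.39-fold higher (log2 0.48 ± 0.0564, n = 2, adjusted p = 0.00285). Both stayed within the fold thresholds, so Fst was not called in any condition, and the tests of its dose difference are given with the contrasts.

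The 3 TGF-beta ligand genes, whose products regulate growth, differentiation and matrix, differed among themselves. Tgfb1 had log2 ratios above 0 on 12 of 12 arrays, from 0.18 to 0.78 at 5 mM and from 0.29 to 0.67 at 1 mM, and was not called. Its highest mean was 0.72 ± 0.108 at 5 mM for 24 h (1.64-fold, n = 2, adjusted p = 0.00186). Tgfb2 gave -0.03 and -0.30 at 5 mM for 3 h, -0.90 and -1.26 at 8 h, and -0.26 and -0.60 at 24 h. All 6 arrays at 5 mM lay below 0, with those at 8 h the lowest, while the 1 mM arrays ran from 0.00 to 0.41. Tgfb2 fell 2.11-fold at 5 mM for 8 h (log2 -1.08 ± 0.139, n = 2, adjusted p = 8.39e-04). That call was lost with the slide as a block (log2 -0.99) and without the 5 mM 8 h replicate 2 (log2 -0.90). Tgfb3 was not called: its log2 ratios at 5 mM were 0.03 and -0.41 at 3 h, -0.63 and -0.52 at 8 h, and -0.10 and -0.09 at 24 h, with a mean of -0.58 ± 0.0998 at 8 h (1.49-fold lower, n = 2, adjusted p = 0.00342).

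Bmp4, a bone morphogenetic protein ligand, was the member called earliest at 5 mM. Its log2 ratios at 5 mM were -1.18 and -1.13 at 3 h, -0.63 and -0.41 at 8 h, and -0.33 and -0.25 at 24 h. The 3 h arrays were the lowest and the 24 h arrays the nearest to 0, with no overlap between the times. At 1 mM it gave -0.37 and -0.30 at 3 h, 0.10 and 0.26 at 8 h, and 0.03 and -0.01 at 24 h. Bmp4 fell 2.23-fold at 5 mM for 3 h (log2 -1.15 ± 0.0734, n = 2, adjusted p = 5.80e-05), a call kept with every alternative tried and without each array in turn. At 5 mM its log2 mean was -0.52 ± 0.0734 at 8 h (adjusted p = 0.00125) and -0.29 ± 0.0734 at 24 h (adjusted p = 0.0194), neither of them called.

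Since Bmp4 is the member called at the earliest time, its promoter is shown. The RefSeq promoter table, on build GRCm38.p6, held 6 of the 10 members, and the 250 bases before the Bmp4 start lie at chr14:46390670-46390919 on the minus strand. Capitals mark matches to the motifs searched.
Bmp4: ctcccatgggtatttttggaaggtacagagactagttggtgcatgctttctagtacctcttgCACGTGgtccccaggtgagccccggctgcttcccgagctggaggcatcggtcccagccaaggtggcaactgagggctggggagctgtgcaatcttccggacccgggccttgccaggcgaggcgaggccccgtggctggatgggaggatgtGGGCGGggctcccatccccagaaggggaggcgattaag
Read on both strands, the window holds the E-box CACGTG, starting 188 bases before the start (in 6.05% of all 27025 promoters cut to the same length), and the GC box GGGCGG, starting 38 bases before it (32.9%). It holds no cAMP response element TGACGTCA (1.62%) and not its shorter core TGACG (17.9%), which lies inside it. Nor does it hold a TATA box TATAAA (13.0%), the palindromic SMAD element GTCTAGAC (0.174%), the BMP-responsive GC-rich element GGCGCC (9.54%) or the AP-1 site, searched with any middle base (6.87%). A match is a description of the letters and no evidence of binding.

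Id1 encodes an inhibitor of basic helix-loop-helix factors and responds to BMP signals. The brighter of its 2 probes gave 0.36 and 0.08 at 5 mM for 3 h, -0.70 and -0.94 at 8 h, and 0.07 and -0.19 at 24 h. At 1 mM it gave 0.09 and -0.13 at 3 h, 0.64 and 0.49 at 8 h, and 0.28 and 0.24 at 24 h. At 8 h the doses thus lay on opposite sides of 0, with a mean of -0.82 ± 0.109 at 5 mM (1.77-fold lower, n = 2, adjusted p = 9.58e-04) and 0.57 ± 0.109 at 1 mM (1.48-fold higher, n = 2, adjusted p = 0.0287). Neither mean passed its fold threshold. The other probe of Id1 gave -0.76 and 0.63 for the same means, the latter 1.55-fold and called. The 1 mM value at 8 h was called also with the mean of both probes (log2 0.60), with each array centred on its median (log2 0.59) and with the slide as a block (log2 0.63).

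The differences between doses and between times were tested in the same fit, at an adjusted p under 0.05 over all probes. At 3 h, 1 of the 8 members differed between 5 mM and 1 mM (3.40% of all probes did), at 8 h 5 (10.1%) and at 24 h 2 (8.41%). Within 5 mM, 4 members differed between 8 h and 3 h (5.10%), 3 between 24 h and 8 h (8.91%) and 2 between 24 h and 3 h (15.8%). Within 1 mM, none differed between 24 h and 3 h in limma (1.85%). With the replicate number as a block, the members past the test were 2, 6 and 5 for the doses at 3, 8 and 24 h. They were then 4, 4 and 5 for the times at 5 mM in the order above, and 1 at 1 mM. At an unadjusted p under 0.05 stood 4, 7 and 5 members for the doses at 3, 8 and 24 h (15.6%, 23.0% and 22.0% of all probes), 5, 5 and 4 for the times at 5 mM in the order above (18.8%, 21.9% and 28.1%) and 3 for 24 h against 3 h at 1 mM (6594 of 41174 probes). At 8 h, all 5 members past the test had the lower ratio at 5 mM.

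Of the 17 differences past the test, 4 stayed past it with each of the 4 alternatives run for differences and without each of the 12 arrays in turn. Id1 was lower at 5 mM than at 1 mM at 8 h by a log2 difference of -1.39 (95% interval -1.74 to -1.03, adjusted p = 0.00302). Fst was lower at 5 mM than at 1 mM at 8 h, with a difference of -0.82 (SE 0.0798, adjusted p = 0.00213), and again at 24 h, with -0.76 (SE 0.0798, adjusted p = 0.00263). Bmp4 at 5 mM was higher at 24 h than at 3 h by 0.86 (0.62 to 1.10, adjusted p = 0.00222). In each of these 4 comparisons the arrays of the groups did not overlap.

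The other differences lost the test without at least 1 array or with centring. At 8 h, Bmp4 was lower at 5 mM than at 1 mM by a difference of -0.70 (adjusted p = 0.00754), lost only without the 1 mM 8 h replicate 2 (-0.62, adjusted p = 0.0546). For Tgfb2 the difference between the doses at 8 h was -1.12 (adjusted p = 0.0136), lost without the 5 mM 8 h replicate 2 (-0.94, adjusted p = 0.0766), the 1 mM 8 h replicate 1 (-1.08, adjusted p = 0.0874) or the 1 mM 8 h replicate 2 (-1.17, adjusted p = 0.0657). Tgfb3 differed by -0.60 at 8 h (adjusted p = 0.0383) and lost the test without any of 10 arrays (adjusted p up to 0.177) and with centring (-0.65, adjusted p = 0.0677). For Bmp4 at 3 h the difference was -0.82 (adjusted p = 0.0123), lost without any of the 4 arrays compared (adjusted p from 0.0558 to 0.0784) and with centring (-0.72, adjusted p = 0.0882). Inhba was higher at 5 mM than at 1 mM at 24 h by 0.75 (adjusted p = 0.0139), again lost without any of the 4 arrays compared (adjusted p from 0.0792 to 0.0865) and with centring (0.72, adjusted p = 0.0584). Its differences at 3 h (0.56, 95% interval 0.26 to 0.86, adjusted p = 0.0634) and 8 h (0.47, 0.18 to 0.77, adjusted p = 0.0597) did not pass, but lie near the threshold. Both passed with the replicate number as a block (adjusted p = 0.0203 at 3 h and 0.0194 at 8 h). That at 3 h passed also with normexp and loess (0.62, adjusted p = 0.0431). That at 8 h passed also with the slide as a block (0.47, adjusted p = 0.0421) or without either 5 mM 3 h array (0.47).

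Over time at 5 mM, the ratios of Fst (-0.64, adjusted p = 0.00850), Tgfb2 (-0.91, adjusted p = 0.0437) and Id1 (-1.04, adjusted p = 0.0138) were lower at 8 h than at 3 h, and that of Bmp4 was higher (0.63, adjusted p = 0.0193). From 8 h to 24 h the ratios of Inhba (0.53, adjusted p = 0.0460), Fst (0.37, adjusted p = 0.0314) and Id1 (0.76, adjusted p = 0.0242) became higher, and Inhba was higher at 24 h than at 3 h (0.64, adjusted p = 0.0153). Each of these differences was lost when single arrays were left out. That of Fst between 8 h and 3 h was lost without the 5 mM 8 h replicate 1 (adjusted p = 0.0510) or replicate 2 (adjusted p = 0.0649) or the 5 mM 3 h replicate 2 (adjusted p = 0.0526). That of Id1 was lost without the 5 mM 3 h replicate 1 (adjusted p = 0.0603) or the 5 mM 8 h replicate 1 (adjusted p = 0.0530) or replicate 2 (adjusted p = 0.0934). That of Bmp4 was lost without any of its 4 arrays (adjusted p up to 0.112), and that of Tgfb2 without any of 10 arrays (adjusted p up to 0.221). Between 24 h and 8 h, the test was lost without any of 10 arrays for Inhba (adjusted p up to 0.225), 8 for Fst (up to 0.162) and 6 for Id1 (up to 0.141). Inhba between 24 h and 3 h lost it without either 24 h array (adjusted p = 0.0763 and 0.0799) or the 3 h replicate 1 (adjusted p = 0.0707). With centring, 6 of these differences missed the test: Tgfb2 (-1.05, adjusted p = 0.0560) and Bmp4 (0.50, adjusted p = 0.159) between 8 h and 3 h, Inhba (0.54, adjusted p = 0.143), Fst (0.38, adjusted p = 0.204) and Id1 (0.78, adjusted p = 0.0599) between 24 h and 8 h, and Inhba (0.52, adjusted p = 0.0972) between 24 h and 3 h. The differences themselves were smaller than without centring only for Bmp4 and for Inhba between 24 h and 3 h.

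**Figure D2:**
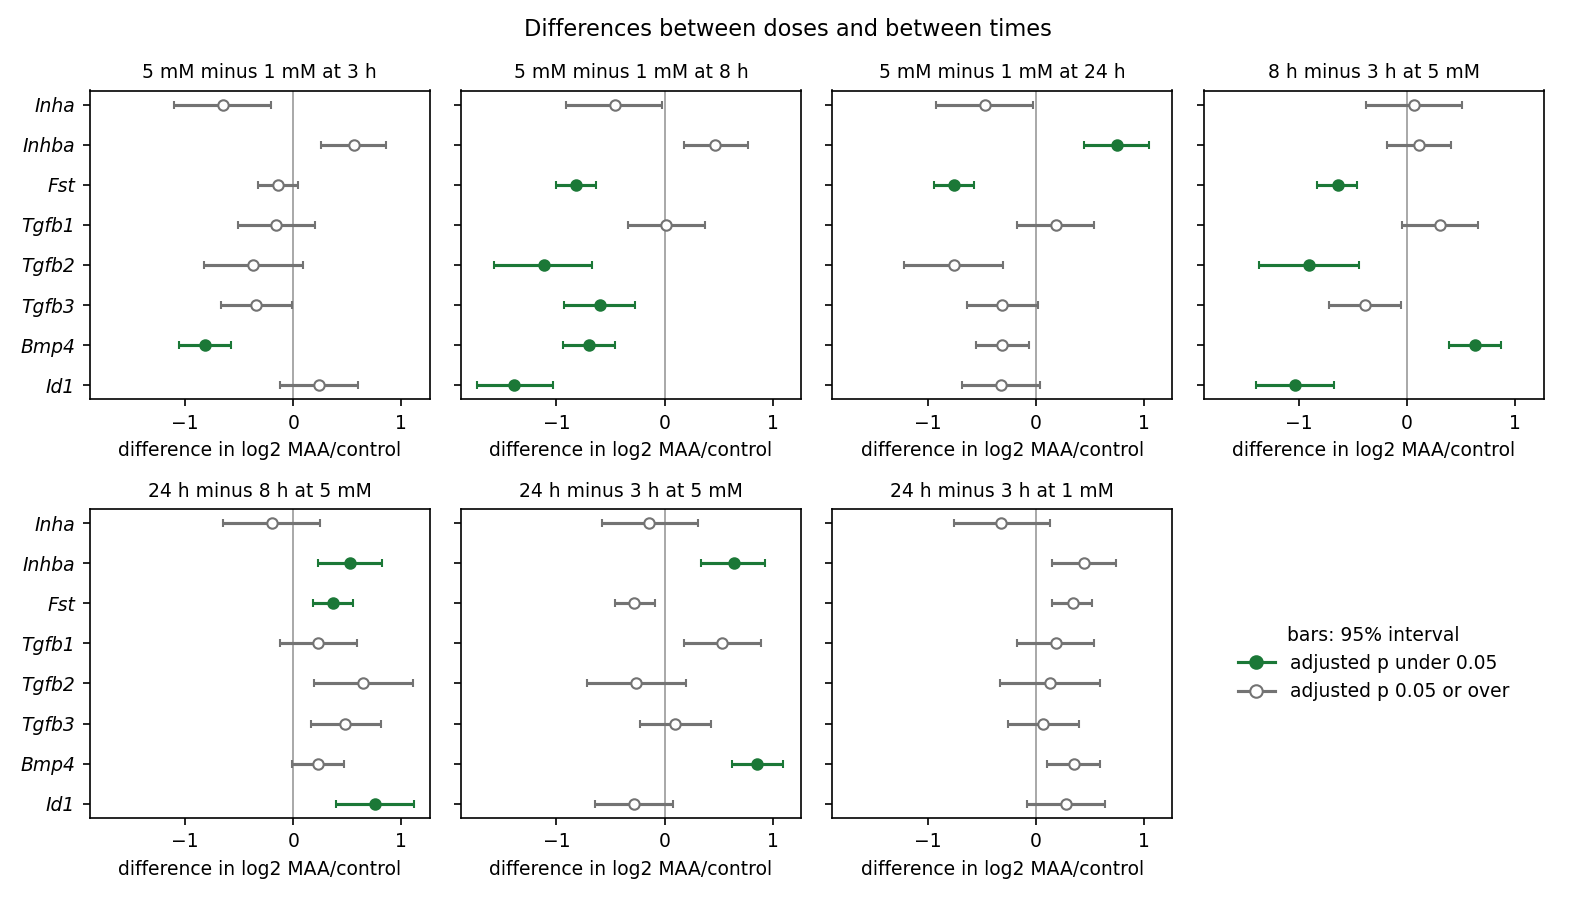
Differences in log2 MAA/control (x axis, bars: 95% interval of the limma fit) for the 8 members (y axis), 1 panel per comparison of doses or times, filled where the adjusted p is under 0.05. At 8 h the 5 filled points of the dose comparison (Fst, Tgfb2, Tgfb3, Bmp4 and Id1) all lie below 0, from -1.39 to -0.60, and the panel for 1 mM has none filled.

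Levels in the untreated cells differed with the time in culture, as described without a test on the log2 signal of the control channel scaled between arrays (4 arrays per time). Tgfb3 had a median of 11.57 at 3 h, 12.09 at 8 h and 13.45 at 24 h. Id1 had 13.19, 14.62 and 15.21, Tgfb2 10.70, 11.31 and 12.12, and Inha 8.13, 8.41 and 8.71. For Tgfb3, Id1, Tgfb2 and Inha the 4 arrays of each time lay apart from those of the other times. For Inha the gap was narrow, from 8.59 at most at 8 h to 8.60 at least at 24 h. Fst had medians of 10.02 and 10.03 at 3 and 8 h, which did not differ beyond their spread, and 11.51 at 24 h. Bmp4 likewise had 14.12 and 14.01, with overlapping arrays, and 14.82 at 24 h. Inhba was highest at 8 h (9.46, 10.26 and 9.58), and its 3 h and 24 h arrays overlapped. Tgfb1 was highest at 3 h (8.84, 8.29 and 8.34). For each member the arrays of at least 1 time thus lay apart from those of the others, while for Fst, Bmp4, Inhba and Tgfb1 those of the other 2 times overlapped. Whether these levels bear on the ratios was not tested.

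**Figure D3:**
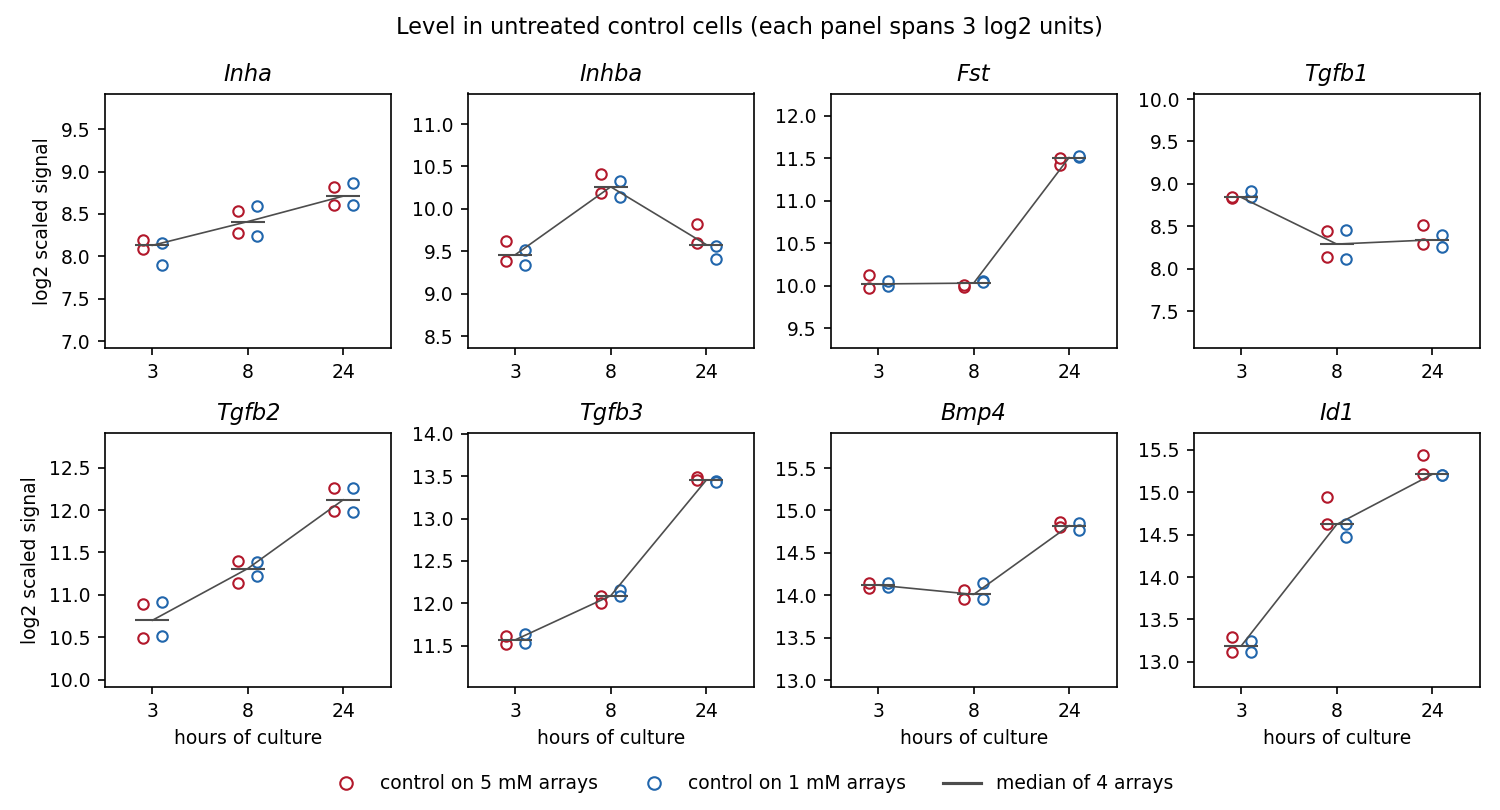
Log2 signal of the untreated channel, scaled between arrays (y axis), by hours of culture (x axis) for the 8 members, with 1 circle per array and a line through the medians of 4 arrays. Tgfb3 goes from 11.57 to 13.45 and Id1 from 13.19 to 15.21 between 3 and 24 h, while Inhba is highest at 8 h (10.26).

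The rest of the pathway was read from 5 lists with 93 genes, of which 87 had a matched probe. The lists were chosen with earlier results of these data known, so their shares of calls are no independent result about the pathway. At 5 mM, 3 list genes were called up and 3 down at 3 h, 4 up and 5 down at 8 h, and 6 up and 2 down at 24 h. At 1 mM the counts were 3 up and 1 down at 3 h, 3 up and 0 down at 8 h, and 9 up and 0 down at 24 h. These are 6.90%, 10.3% and 9.20% of the 87 genes at 5 mM and 4.60%, 3.45% and 10.3% at 1 mM. The shares of all probes above include probes near background, which were called less often. Among probes well above background alone, 5.26%, 7.80% and 7.30% were called at 5 mM for 3, 8 and 24 h. At 1 mM that share was likewise higher than the share of all probes at each time. Of the 87 list genes, 66, 65 and 68 were well above background at 5 mM, so neither share is an exact match. No set test was made. In all, 15 list genes were called at 5 mM at 1 time or more.

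Of 22 other ligand genes with a probe, 2 were called at 5 mM. Gdf9, an oocyte growth factor, fell at 3 h (log2 -1.14 ± 0.173, n = 2, adjusted p = 0.00247). Without the 5 mM 3 h replicate 2 (-0.77) and with normexp and loess (-0.57) that call was lost. Gdf9 was also called at 1 mM for 3 h (-0.69, adjusted p = 0.0761), a call lost without any of 10 arrays, with normexp and loess (-0.24) and with the deposited ratios (-0.68). Lefty1, a secreted inhibitor of Nodal signalling, rose 2.07-fold at 24 h (0.99 and 1.11, mean 1.05 ± 0.0566, adjusted p = 2.65e-05), a call lost without the 5 mM 24 h replicate 2 (0.99).

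Of 16 receptor and coreceptor genes, 2 were called. Eng, the coreceptor endoglin, fell at each time at 5 mM. The 5 mM arrays gave -1.06 and -1.14 (3 h), -1.49 and -1.35 (8 h), and -1.17 and -1.01 (24 h), for means of -1.10 ± 0.0913, -1.42 ± 0.0913 and -1.09 ± 0.0913 (adjusted p = 1.64e-04, 3.91e-05 and 1.35e-04). All 6 arrays lay below all 6 of the 1 mM arrays, which ran from -0.56 to -0.12. With normexp and loess the means were -0.51, -0.81 and -0.58, under 2-fold at each time, and with centring the 3 h mean was -0.99. Acvrl1, a type I receptor that acts with endoglin, was not well above background in untreated cells at 24 h and was at least 2.87-fold higher at 5 mM (adjusted p = 0.00281) and at least 1.76-fold higher at 1 mM (adjusted p = 0.00887), each a lower bound. With normexp and loess both calls were lost, the change being under 1.5-fold at each dose, so the bounds hold for the reported fit alone. Without replicate 1 of the condition the fold threshold was still passed and only the test missed (unadjusted p = 0.00719 at 5 mM and 0.00575 at 1 mM). None of the 14 genes for SMADs and their intracellular regulators was called at 5 mM at any time by the probe that stands for the gene.

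Of 19 extracellular antagonists and latency proteins, 6 were called at 5 mM, of which 5 are described. Thbs1, whose product thrombospondin-1 activates latent TGF-beta, rose 2.23-fold at 3 h (log2 1.16 ± 0.0907, n = 2, adjusted p = 1.26e-04) and 2.61-fold at 8 h (1.38 ± 0.0907, n = 2, adjusted p = 4.21e-05). Its other probes gave 1.15 and 0.96 at 3 h, the latter 1.95-fold and not called. At 8 h they gave 1.29 and 1.16, both called. Nbl1, a BMP antagonist, rose at 5 mM for 8 h (1.37 and 1.16, mean 1.27, adjusted p = 1.13e-04) and at 1 mM for 8 h (1.60-fold, adjusted p = 0.0141, a call lost without the 1 mM 8 h replicate 1) and 24 h (1.78-fold, adjusted p = 0.00376). Dcn, encoding the TGF-beta-binding proteoglycan decorin, fell at 5 mM for 8 h (-1.11 and -1.37, mean -1.24, adjusted p = 7.49e-04) and rose at 1 mM for 24 h (1.05 and 1.11, mean 1.08, adjusted p = 0.00611). Ltbp2, a latent TGF-beta binding protein, fell at 24 h (-1.30 and -1.24, mean -1.27, adjusted p = 7.78e-05). Fstl1, a follistatin-like glycoprotein, rose at 24 h at both doses (1.17 at 5 mM, adjusted p = 2.17e-04, and 1.12 at 1 mM, adjusted p = 0.00137).

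Of 16 target genes, 5 were called at 5 mM, in both directions, of which 4 are described. Hey1, a transcriptional repressor also known as a Notch target, rose in all 6 conditions, with means from 0.68 at 1 mM for 8 h to 1.84 at 5 mM for 3 h. The call of Hey1 at 1 mM for 8 h was lost without either of its arrays (0.60 without replicate 1, 0.76 without replicate 2). Of the relatives of Id1, 2 fell at 5 mM for 8 h, Id3 by 3.86-fold (-2.07 and -1.83, mean -1.95 ± 0.0764, adjusted p = 8.85e-06) and Id2 by 2.57-fold (-1.16 and -1.56, mean -1.36 ± 0.153, adjusted p = 4.33e-04). At 5 mM for 3 h neither was called (0.04 and 0.75), and at 1 mM for 8 h they gave -0.20 and -0.05. Atoh8, a basic helix-loop-helix factor, fell at 5 mM for 3 h and 8 h (-1.27 at both, adjusted p = 2.39e-05 and 1.56e-05). Id1, Id2 and Id3 thus had their lowest ratios of the 6 conditions at 5 mM for 8 h.

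**Figure D4:**
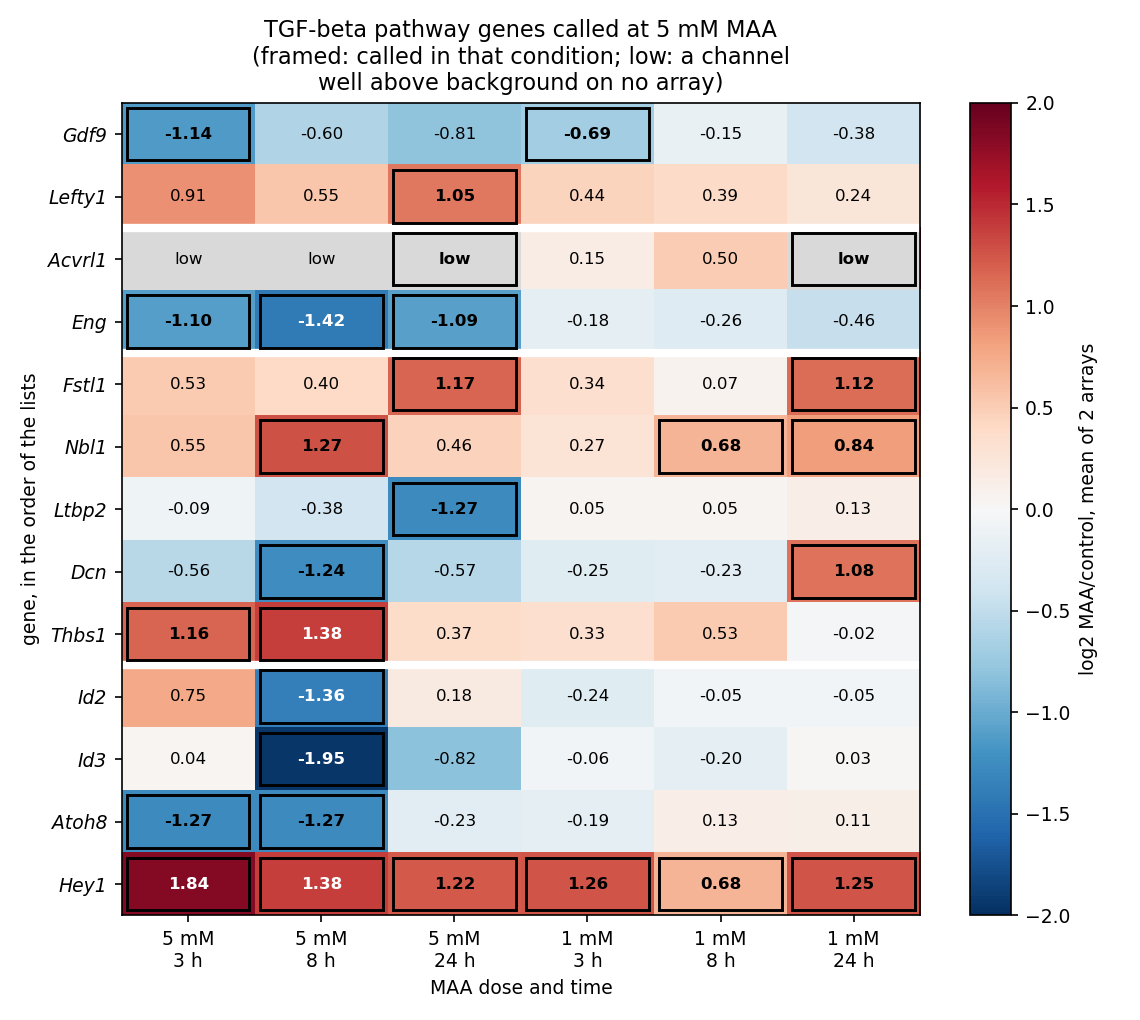
Mean log2 MAA/control of 2 arrays (colour and number) for the pathway genes called at 5 mM and described here (y axis) in the 6 conditions (x axis), framed where called, and grey where a channel was well above background on no array. Id2 (-1.36) and Id3 (-1.95) are lowest at 5 mM for 8 h, and Hey1 is above 0 in all 6 conditions.

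For the members called at 5 mM, the named genes with the most similar ratios over the 12 arrays were found among 10566 others by Pearson correlation, as a description. The arrays are 6 conditions with 2 arrays each, so the measure mainly follows the conditions. Closest to Inhba were Sdcbp2 (r = 0.958), Herc3 (0.958) and Cfl2 (0.951). Herc3 rose at 5 mM for 24 h with a log2 ratio of 2.26 and Sdcbp2 with 1.43, while Cfl2 had 0.64. Closest to Tgfb2 were Mmp14 (r = 0.975), Mgst1 (0.974) and Tep1 (0.973), with log2 ratios of -1.80, -1.03 and -0.92 at 5 mM for 8 h, the first 2 of them called. Closest to Bmp4 were Armc5 (r = 0.984), Zfp111 (0.977) and Mkks (0.972), 2.83-fold, 2.16-fold and 1.76-fold lower at 5 mM for 3 h, the first 2 of them called. Mmp14 encodes a membrane-bound matrix metalloproteinase.

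Markers of other cell types moved in part with the conditions. Of 8 Sertoli cell markers, 3 were called at 5 mM. Dhh, not well above background in the untreated cells of the 5 mM arrays at 3 h and 8 h, was at least 1.99-fold higher at 3 h and at least 14.4-fold higher at 8 h, and was called up also at 24 h. At 1 mM Dhh was called up at 3, 8 and 24 h. There neither channel was well above background at 3 h, the log2 ratio was 1.88 at 8 h, and the level was at least 1.90-fold higher at 24 h. Sox9 rose at 3 h at both doses (log2 1.37 at 5 mM and 0.80 at 1 mM) and Rhox5 at 5 mM for 24 h (1.28). Gata1 was called at 1 mM for 24 h (0.94), and at 5 mM for 24 h it had 0.92 (adjusted p = 0.00250), short of 2-fold. Wt1, whose probe had the highest signal of them, was not called, its lowest mean being at 5 mM for 8 h (log2 -0.80, 1.74-fold lower, adjusted p = 1.97e-04), and Cldn11 was not well above background on any array. At 5 mM for 8 h, where Tgfb2, Tgfb3, Id1 and Fst had their lowest ratios, the Sertoli markers thus had no common direction. The summed signal of the list (5870 to 13900 untreated, 4800 to 12900 treated) is nearly that of Wt1 alone, whose median of 9060 compares with 191 for the next marker, Rhox5. It was 7750 in treated against 12100 in untreated cells on replicate 1 and 6810 against 11600 on replicate 2 at 5 mM for 8 h, which restates the ratio of Wt1.

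Of 7 Leydig markers, Insl3 fell at 5 mM for 24 h (-1.11), and Cyp11a1, not well above background in untreated cells, was at least 1.85-fold higher there. Star was not called at 5 mM. Its log2 ratios were 0.94 at 3 h (adjusted p = 0.00442), 0.64 at 8 h (adjusted p = 0.0192) and 0.19 at 24 h (adjusted p = 0.480). Cyp17a1 was not called either (-0.20, 0.17 and -0.16 at those times). The summed signal of the Leydig list, mostly Insl3, ran from 331 to 1140 in untreated and from 327 to 850 in treated cells. Of 4 peritubular myoid markers 2 were called at 5 mM: Cnn1 rose 2.29-fold at 8 h (log2 1.19, adjusted p = 6.72e-05) and Des 2.46-fold at 24 h (adjusted p = 4.08e-04). Cnn1 also rose at 1 mM for 8 h (0.71) and 24 h (0.88), while Acta2, with the highest signal, was not called (0.48 at 5 mM for 8 h and for 24 h). The summed myoid signal (12000 to 27900 untreated, 13900 to 38800 treated) is nearly that of Acta2 alone, whose median of 18500 compares with 368 for Cnn1, so it does not describe the list. Of 5 germ cell markers 1 was called at 5 mM, Stra8, at least 2.06-fold higher at 8 h and higher by a log2 ratio of 1.09 at 24 h (highest signal Ddx4, sums of 524 to 1550 untreated and of 562 to 1940 treated). Not called at 5 mM for 24 h were Ddx4 (-0.82, adjusted p = 0.00106), Prm1 (-0.33, adjusted p = 0.0468) and Sycp3 (0.50, adjusted p = 0.622). The germ cell sum there was 562 in treated against 849 in untreated cells on replicate 1 and 616 against 994 on replicate 2. Among macrophage markers, Csf1r and Cd68 matched no probe here, although the paper lists Csf1r among its mid- and late-response genes. Of the 3 with a matched probe, 1 was called at 5 mM, Adgre1, not well above background in untreated cells. At 24 h, where Inhba was called at both doses, Adgre1 was at least 3.65-fold higher at 5 mM (adjusted p = 7.29e-05). At 1 mM it was at least 3.13-fold higher at 24 h (adjusted p = 4.66e-04). Lyz2, with the highest signal of these, rose at 1 mM for 24 h (0.67) and had -0.39 at 5 mM for 24 h, and Ptprc was well above background on no array (sums of 102 to 1350 and of 102 to 2040). Of 4 endothelial markers 1 was called at 5 mM, Cdh5 at 24 h, where it was not well above background in either channel, and at 1 mM for 24 h it was at least 2.85-fold higher (highest signal Tek, Pecam1 and Kdr well above background on no array, sums of 11.1 to 61.8 and of 9.74 to 88.2). Tek was not called. It was at least 1.31-fold lower at 5 mM for 8 h (adjusted p = 0.0311). At 24 h Tek had log2 ratios of -1.01 at 5 mM (adjusted p = 0.0877) and 0.32 at 1 mM (adjusted p = 0.731). Whether these changes have a part in those of the members was not tested, and more RNA per cell and more cells of a kind cannot be told apart in such cultures.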

How the data were processed

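RNA of MAA-treated and untreated TM3 cells was hybridised to 2-colour Agilent arrays. Per the file headers, the authors' Feature Extraction 9.5.3.1 made processed signal intensities (background subtraction, linear and LOWESS dye normalization) and the mean and background intensities. The deposited series table holds log10 ratios, MAA over control. They equal the scanner's log10 ratios within 0.0051 on all but at most 1 spot per array, and each column's median is 0.00. Here log2 ratios of processed signals were turned to MAA over control, leaving out control spots and 124 to 208 outlier spots per array and averaging spots of a probe. limma 3.58.1 in R 4.3.3 fitted 12 arrays with 1 coefficient per condition (6 residual degrees of freedom), with Benjamini-Hochberg adjustment over all probes. The fit was tested on simulated data.

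The rule asked for the gene name column to equal a member, which matched 0 spots. Accessions there, without versions, named 22072 of 41174 probes through the RefSeq table, a departure from the letter of the rule, and Inhbb and Smad7 matched none. Named are all members, list genes called at 5 mM and the 3 genes most like each member called at 5 mM. Of the list genes called at 5 mM, 2 are counted but not reported here by name. Members and lists were chosen with earlier results of these data known. Where a channel was well above background on no array of a condition, a bound against the lowest signal well above background is given in place of a fold.

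Alternatives were normexp (offset 50) with loess, the deposited ratios, centring, leaving out dim probes, keeping outlier spots, replicate number or slide as a block, each dose alone, an adjusted p, the mean of all probes and leaving out each array. For the differences between doses and times only normexp with loess, centring, the blocks and leaving out each array were run. Each condition has 1 array on each of 2 slides, so the values per array are also those within a slide.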

Additional observations from a re-analysis of the deposited data

Results flagged for a closer look

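The ratios of 6 members differed between doses or times by a test of the difference itself (limma, adjusted p under 0.05). Between 5 mM and 1 mM the log2 differences were -0.82 for Bmp4 at 3 h, -0.82 for Fst, -1.12 for Tgfb2, -0.60 for Tgfb3, -0.70 for Bmp4 and -1.39 for Id1 at 8 h, and 0.75 for Inhba and -0.76 for Fst at 24 h.

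At 5 mM the differences between 8 h and 3 h were -0.64 for Fst, -0.91 for Tgfb2, 0.63 for Bmp4 and -1.04 for Id1. Between 24 h and 8 h they were 0.53 for Inhba, 0.37 for Fst and 0.76 for Id1, and between 24 h and 3 h 0.64 for Inhba and 0.86 for Bmp4. Groups of 2 arrays are too small to look for a single array that stands apart.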

How the results depend on the processing

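With normexp and loess, 1 member was called at 5 mM for 8 h (2 in the reported fit), 5 pathway genes at 5 mM for 24 h (8) and 1 at 1 mM for 3 h (4), and members past the test numbered 2 for the doses at 3 h (1), 4 at 24 h (2) and 5 for 24 h against 8 h (3). Over all probes this setting called 534, 1030 and 881 at 5 mM for 3, 8 and 24 h (1547, 2284 and 2315) and 116, 398 and 500 at 1 mM (803, 977 and 1925), and the share up at 1 mM was 50.9% at 3 h (67.9%) and 81.4% at 24 h (69.8%).

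With each array centred on its median, 2 members were called at 5 mM for 3 h (1) and 1 at 1 mM for 8 h (0), and the members past the test were 0 for the doses at 3 h (1), 1 at 24 h (2), 2 for 8 h against 3 h (4), 0 for 24 h against 8 h (3) and 1 for 24 h against 3 h (2). The share of called probes up at 5 mM for 3 h was then 67.3% (53.8%).

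With the slide as a block, 0 members were called at 5 mM for 8 h (2), 1 at 1 mM for 8 h (0) and 2 at 1 mM for 24 h (1, Tgfb1 joining with log2 0.60), and 6 passed for the doses at 8 h (5), 4 at 24 h (2, Tgfb2 joining with adjusted p = 0.0349 and Bmp4 with 0.0407) and 4 for 24 h against 3 h at 5 mM (2, Fst joining with 0.0377 and Tgfb1 with 0.0223). With the mean of all probes, 2 were called at 5 mM for 24 h (1), the added Inha resting on a probe not well above background there, and 1 at 1 mM for 8 h (0). The deposited ratios, dim probes left out, outlier spots kept, each dose alone and the adjusted p changed no member's call. No direction of a called value reversed under any alternative. The causes were not tested.

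Replicates of different conditions share a number, which is also the dye orientation. Over 24743 probes, the difference between replicates correlated with a median r of 0.520 over 15 pairs of conditions, from 0.0394 to 0.773, and 14 of 15 passed 0.1. With the replicate block, 2 members passed for the doses at 3 h (1, Inhba joining with adjusted p = 0.0203), 6 at 8 h (5, Inhba joining with adjusted p = 0.0194), 5 at 24 h (2, with Tgfb2 at 0.00642, Bmp4 at 0.0401 and Id1 at 0.0343), 4 for 24 h against 8 h at 5 mM (3, with Tgfb2 at 0.00955), 5 for 24 h against 3 h at 5 mM (2, with Fst at 0.0128, Tgfb1 at 0.0202 and Id1 at 0.0389) and 1 for 24 h against 3 h at 1 mM (0, Fst at 0.0236), and no member's call in a condition changed.

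Leaving out each array in turn leaves 1 array in its condition, assumed to vary like the others. Members called then ranged from 1 to 2 at 5 mM for 3 h, 0 to 2 at 5 mM for 8 h and 0 to 1 at 1 mM for 8 h, where Tgfb1 was called without the 1 mM 8 h replicate 1 (log2 0.67), and pathway genes from 2 to 4 at 1 mM for 3 h. Members past the test ranged for the doses from 0 to 1 at 3 h, 2 to 6 at 8 h and 1 to 2 at 24 h, and at 5 mM from 0 to 4 for 8 h against 3 h, 0 to 4 for 24 h against 8 h and 1 to 3 for 24 h against 3 h. The likeness of genes and the untreated levels were computed in 1 way only. With 2 arrays per condition, values near a threshold are not precise enough to place on either side.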

Other observations

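Among the pathway genes, 5 were called at 1 mM and not at 5 mM, where the threshold is 2-fold and not 1.5-fold, and are named after their values were seen. Bambi, a pseudoreceptor that dampens TGF-beta and BMP signals, had log2 ratios of 0.79 and 0.83 at 1 mM for 24 h (mean 0.81 ± 0.0645, adjusted p = 6.42e-04) and of -0.77 and -0.69 at 5 mM for 24 h (mean -0.73, adjusted p = 1.68e-04), the latter within 2-fold. Id4, another relative of Id1, had 0.85 and 0.95 at 1 mM for 24 h (mean 0.90 ± 0.0813, adjusted p = 9.95e-04), and 0.72 at 5 mM for 3 h and -0.11 at 5 mM for 8 h. Gdf1 had a mean of 0.59 at 1 mM for 24 h and of 0.63 at 5 mM for 8 h (adjusted p = 3.20e-04). Cdkn1a had 0.59 at 1 mM for 8 h, and 0.90 at 5 mM for 8 h (adjusted p = 1.55e-04) and 0.80 at 5 mM for 24 h (adjusted p = 3.01e-04). For Gdf1 and Cdkn1a a value at 5 mM that was not called thus lay above the value called at 1 mM, so the calls alone do not show a larger ratio at 1 mM. Smad9 had a mean of 1.10 at 1 mM for 3 h, where 1 of 2 arrays was well above background in each channel. Differences between doses were not tested for these genes.

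Smad5, a mediator of BMP signals, had 3 probes, all with their lowest ratio at 5 mM for 3 h. The brightest gave -0.80 there and the others -0.85 and -1.01, and the last alone passed the 2-fold threshold (adjusted p = 1.76e-04).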
